A study of Saccharomyces cerevisiae with 8 samples.

Results

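How far a yeast strain lacking both MSP1 and PEX19 departed from the sum of its single deletions was measured gene by gene, in RNA-seq and in ribosome-protected fragments (RPF). For each gene and assay the nonadditive value adds the log2 levels of wild type and of the double deletion and subtracts those of both single deletions. A value of 0 means that the fold changes of the single deletions multiply in the double deletion, and a negative value means that the double deletion lies below that product. Genes with a mean of at least 100 reads over the 4 genotypes in both assays were kept, 2495 of the 6668 listed genes. At this limit BNA4, ATG22 and YLR419W, each with a mean of 100 reads in the assay where it was read less, were just inside, and DOP1, LOC1 and SSY5, with 99.75, were just outside.

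The 4 genotypes were W303, W303 lacking MSP1, W303 lacking PEX19 and W303 lacking both. The medium of all was synthetic complete (SC), with glycerol and ethanol at 2% each as carbon source, in a final 500 mL culture begun at an optical density of 0.1 and collected after 16 h at 2 to 2.5. From each genotype came 1 library per assay, and the series' design text counts both as 1 sample. No value therefore has a replicate check, no test was run, and the intervals given cover counting error only; the number of clones behind a strain was not given in the sources used here. In these bulk cultures a change in RNA per cell and a change in the share of cells that carry it cannot be told apart.

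The MSP1 protein, an AAA ATPase in the outer membrane of mitochondria, pulls out tail-anchored proteins inserted there by mistake. PEX19 encodes the cytosolic chaperone and import receptor of peroxisomal membrane proteins, and yeast without it lacks normal peroxisomes. The study's title names mitochondrial dysfunction in Zellweger spectrum disorder, a human disease of peroxisome assembly. The comparison asks whether losing both proteins does more, or less, than both losses added on the log scale.

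RNA-seq libraries held 4694951 to 5367091 reads, and RPF libraries 2133432 in wild type, 1101458 in the msp1, 2300792 in the pex19 and 1685722 in the double deletion. MSP1 and PEX19 were listed at 1 read wherever they were deleted, which matches the labels, and did not pass the minimum themselves. Of their neighbours COX9, IDP1 and UBC9 passed, with nonadditive values of 0.18, −0.05 and −0.14 in RNA-seq and 0.31, −0.20 and −0.10 in RPF. These values do not show a shift shared by a single and the double deletion. UBC9, beside PEX19, had 234, 198, 614 and 527 RNA-seq reads in wild type, the msp1, the pex19 and the double deletion. ERV1, beside MSP1 and under the minimum, had 286, 169, 323 and 131 in RNA-seq and 166, 33, 128 and 35 in RPF. In RNA-seq the pex19 library was the one farthest from the other 3 for 1154 of the 2495 genes, and in RPF the msp1 library for 1195. The nonadditive value needs all 4 libraries of an assay, so it cannot be given without either of them. For many of the named genes, though not all, the level in each library is given beside the value instead.

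Over all genes the median nonadditive value was −0.03 in RNA-seq, with an SD across genes of 0.377 and a median counting half-width of 0.192. In RPF the median was 0.04, the SD 0.562 and the half-width 0.387. The counting interval left out 0 for 1485 genes in RNA-seq (59.5%) and 1342 in RPF (53.8%); it holds no spread between cultures. At least 2-fold below the sum were 28 genes in RNA-seq (1.12%) and 77 in RPF (3.09%), and at least 2-fold above it 13 (0.521%) and 82 (3.29%). With scaling by library totals the RNA-seq counts were 23 below and 19 above, and with TMM scaling over all listed genes the RPF counts were 48 below and 123 above. That second scaling moved the RPF median of all genes by 0.103.

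Both assays passed the 2-fold limit together for 8 genes below the sum (0.321%) and 2 above it (0.0802%). The 8 were MF(ALPHA)1, TKL2, CTT1, HSP26, YLR307C-A, MFA1, STE2 and SSA3, and the 2 were ADH4 and IMP2'. TMM over all listed genes gave 6 below, without MFA1 and SSA3, and 4 above, with ABD1 and ZRT1 added; library totals left out STE2. A minimum of 200 reads kept 6 of the 8, without MF(ALPHA)1 and MFA1, and 1 of the 2, without IMP2'. At the 1.5-fold limit 166 genes lay below the sum (6.65%) and 113 above it (4.53%) in RNA-seq, and 348 (13.9%) and 374 (15%) in RPF. Library totals gave 116 and 159 in RNA-seq, and TMM over all listed genes 251 and 521 in RPF. In both assays 44 genes lay below (1.76%) and 37 above (1.48%). That split was 36 and 48 with TMM over all listed genes, and 34 and 48 with library totals. Across genes the RNA-seq and RPF values had a Pearson correlation of 0.158 and a Spearman correlation of 0.102 (n = 2495). Over the 87 genes with a mean of at least 3000 reads these were 0.751 and 0.357. The 87 hold ADH4 and HSP26, which lie past 2-fold in both assays, and their part in the Pearson value was not tested. The points share libraries of a genotype and differ in depth, so these correlations are descriptions only.

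**Figure D1:**
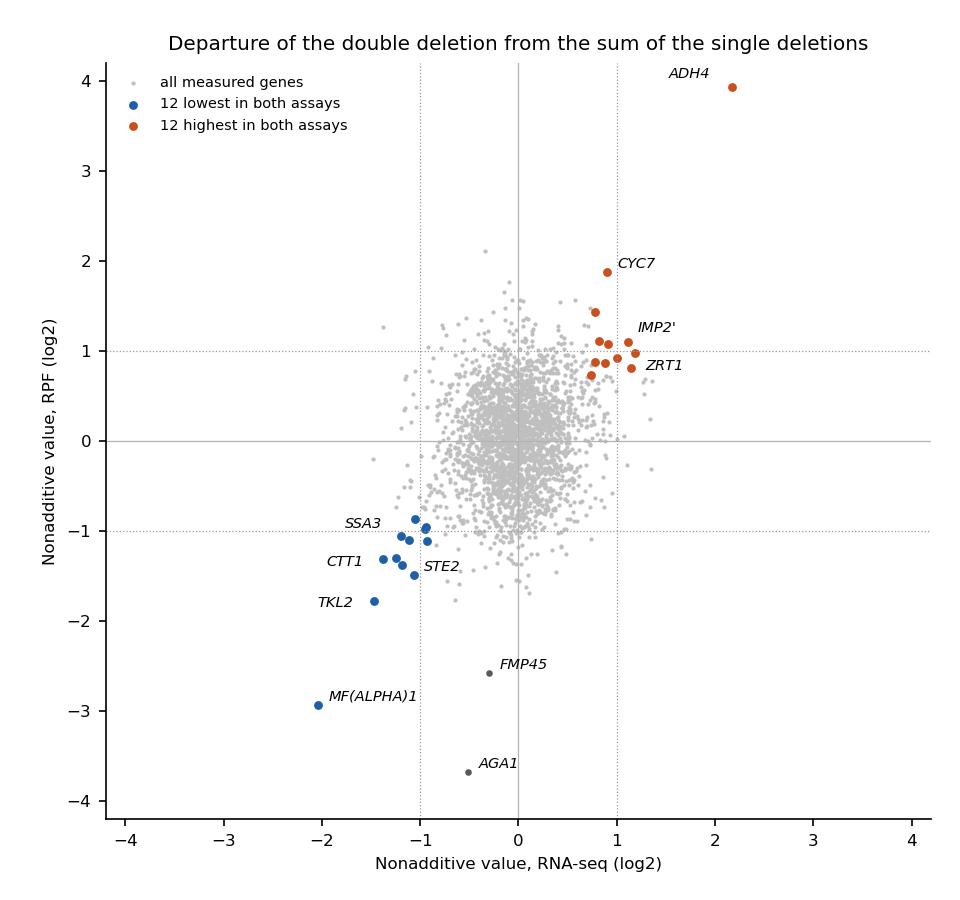
Nonadditive value of each of the 2495 genes in RNA-seq (horizontal axis, log2) against RPF (vertical axis, log2), with dotted lines at 2-fold. MF(ALPHA)1 (−2.04 and −2.93) and ADH4 (2.17 and 3.94) lie far from the cloud at opposite corners, while AGA1 and FMP45 pass the lower 2-fold line in RPF and not in RNA-seq.

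The general stress genes, which the transcription factors Msn2 and Msn4 switch on in yeast under starvation, heat or oxidants, lay mostly below the sum. Of 55 listed members 53 were measured, 47 below 0 in RNA-seq (53.3% of all genes were) and 42 in RPF (46.7%), with 39 below in both (27.1% of all genes). Their medians were −0.29 and −0.40, against −0.03 and 0.04 over all genes. Both assays were at least 1.5-fold below the sum for 10 of them (1.76% of all genes). For 1, the zinc-finger regulator USV1 (0.89 and 0.73), both were at least 1.5-fold above, which is near the 1.48% of all genes. Against wild type the median ratio of the stress genes was 0.15 in the msp1, 0.06 in the pex19 and −0.09 in the double deletion by RNA-seq. In RPF the same medians were 0.19, 0.19 and −0.13. The double deletion was the lowest of the 4 libraries for 32 of the 53 in RNA-seq and 30 in RPF, which over all genes was so for 676 and 566 of 2495.

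CTT1 (YGR088W; chrVII:654634-656322), cytosolic catalase T, stood at 258, 361, 329 and 177 CPM of RNA-seq in wild type, the msp1, the pex19 and the double deletion (CPM are counts relative to a library size scaled by TMM, which brings the bulk of the genes to a common level). In RPF, in the same order, it stood at 258, 361, 330 and 185. Both single deletions were above wild type and the double deletion below it in both assays, which gave −1.38 (95% counting interval −1.53 to −1.22) and −1.31 (−1.58 to −1.05). HSP26 (YBR072W; chrII:382030-382674), a small heat shock protein that binds unfolding proteins, stood at 3006, 3827, 4499 and 2408 in RNA-seq and at 6508, 8802, 8174 and 4503 in RPF. Both single deletions were again above wild type and the double deletion below it, with −1.25 (−1.29 to −1.21) and −1.30 (−1.35 to −1.24).

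TKL2 (YBR117C; chrII:474392-476437), the minor transketolase of the pentose phosphate pathway, read 187, 240, 290 and 134 CPM in RNA-seq and 200, 321, 305 and 143 in RPF. It was again high in both single deletions and lowest in the double, at −1.47 (−1.65 to −1.29) and −1.77 (−2.07 to −1.48). SSA3 (YBL075C; chrII:84499-86448), a stress-induced cytosolic Hsp70, read 170, 369, 152 and 144 in RNA-seq and 131, 290, 96.8 and 103 in RPF. Here the msp1 deletion alone was high and the other 3 libraries lay together, so its values of −1.19 and −1.05 rest on that library. HXT5, a hexose transporter made in slow growth, was also highest in the msp1 deletion, with 401, 585, 491 and 367 in RNA-seq and 323, 583, 290 and 313 in RPF (−0.96 and −0.74).

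The stress response element to which Msn2 and Msn4 bind in yeast, AGGGG on either strand, was looked up in a window of 300 bases that ends 100 bases before each start codon. It was present in 43 of the 53 stress genes (81.1%) and in 28.6% of all 2495 windows. Stress genes with it had medians of −0.26 and −0.34, and the 10 without it −0.52 and −0.73. The windows of the catalase and the small heat shock gene are shown, since these genes stood below the sum in both assays by nearly equal amounts; capitals mark the element. They come from the RefSeq R64 genome, plus strand, at chrVII:654234-654533 and chrII:381630-381929.
CTT1: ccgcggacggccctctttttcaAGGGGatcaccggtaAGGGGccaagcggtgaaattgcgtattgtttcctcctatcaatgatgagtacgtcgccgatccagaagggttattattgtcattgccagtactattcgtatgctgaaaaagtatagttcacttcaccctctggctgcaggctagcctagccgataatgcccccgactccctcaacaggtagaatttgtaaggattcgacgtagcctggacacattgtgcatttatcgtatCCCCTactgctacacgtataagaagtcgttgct
HSP26: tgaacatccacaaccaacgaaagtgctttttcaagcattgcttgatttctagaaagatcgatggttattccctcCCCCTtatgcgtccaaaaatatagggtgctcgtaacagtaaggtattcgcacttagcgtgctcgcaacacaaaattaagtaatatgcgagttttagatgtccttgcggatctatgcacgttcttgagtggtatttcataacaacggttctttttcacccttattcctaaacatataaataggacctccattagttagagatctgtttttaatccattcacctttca
CTT1 held 3 copies in this window and HSP26 1.

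Genes of mating cell identity lay lowest of the lists. Haploid yeast of mating type a make a-factor and the receptor of α-factor, and cells of type α make α-factor; the labels do not give the mating type of these strains. Of 12 listed a-specific and α-specific genes 6 were measured, and each was below the sum in both assays (27.1% of all genes). Their medians were −1.09 in RNA-seq and −1.44 in RPF. In RNA-seq their median ratio to wild type was 0.27 in the msp1, 0.67 in the pex19 and −0.07 in the double deletion, and in RPF 0.79, 0.97 and 0.09. As groups of 1 library each, the single deletions were above wild type while the double deletion was near it.

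MF(ALPHA)1 (YPL187W; chrXVI:193648-194145), the α-factor precursor, read 22.3, 51.6, 48.6 and 27.2 CPM in RNA-seq and 53.1, 158, 98.6 and 37.7 in RPF. Both single deletions were high, and the double deletion was near wild type in RNA-seq and below it in RPF, for values of −2.04 (−2.47 to −1.60) and −2.93 (−3.46 to −2.41). STE2 (YFL026W; chrVI:82580-83875), the α-factor receptor, read 274, 317, 438 and 241 in RNA-seq and 116, 188, 227 and 131 in RPF. It was highest in the pex19 deletion, with −1.07 (−1.21 to −0.92) and −1.49 (−1.83 to −1.14).

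MFA1 (YDR461W; chrIV:1385176-1385286), an a-factor precursor gene, read 40.6, 34.7, 64.2 and 25.2 in RNA-seq and 79.2, 79.8, 163 and 76.6 in RPF. The pex19 library alone was high in both assays, at −1.12 (−1.53 to −0.70) and −1.10 (−1.57 to −0.63). MFA2, the other a-factor gene, was at −1.22 and −0.62. BAR1, the secreted protease that degrades α-factor, was at −0.64 and −1.77, and STE6, the a-factor exporter, at −0.34 and −1.40. The haploid-specific and pheromone-response genes were a separate list taken up after its values were seen, with 14 of 39 measured. By its medians of −0.11 and −0.18 this list lay closer to the sum, and 7 of the 14 were below 0 in both assays (27.1% of all genes). Its members were spread. FAR1 was at −0.75 and −1.03 and GPA1 at −0.18 and −1.61, while PRY3 was at 0.64 and 0.49 and RME1 at 0.44 and 0.36.

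TGAAACA, the pheromone response element of the transcription factor Ste12, was present in the windows of 5 of the 6 mating genes and in 7.54% of all windows. The windows of STE2 and MFA1, the receptor and pheromone genes below 2-fold in both assays, are given from R64, plus strand, at chrVI:82180-82479 and chrIV:1384776-1385075, with the element in capitals on either strand.
STE2: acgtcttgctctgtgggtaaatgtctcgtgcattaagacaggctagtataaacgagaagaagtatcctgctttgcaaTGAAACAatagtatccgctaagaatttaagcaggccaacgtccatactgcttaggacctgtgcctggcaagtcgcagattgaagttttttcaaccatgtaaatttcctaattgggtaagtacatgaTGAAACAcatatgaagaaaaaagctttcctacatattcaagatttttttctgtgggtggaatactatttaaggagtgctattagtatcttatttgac
MFA1: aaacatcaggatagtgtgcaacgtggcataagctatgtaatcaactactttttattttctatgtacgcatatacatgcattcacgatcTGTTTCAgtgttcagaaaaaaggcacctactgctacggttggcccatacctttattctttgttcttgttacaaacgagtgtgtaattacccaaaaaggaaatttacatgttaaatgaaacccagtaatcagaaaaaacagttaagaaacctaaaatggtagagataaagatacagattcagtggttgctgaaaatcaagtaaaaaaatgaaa
The STE2 window held 2 copies and that of MFA1 1, and MF(ALPHA)1 was the gene without a copy.

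Enzymes of the glyoxylate cycle and gluconeogenesis, which let yeast build sugars from ethanol and acetate, lay below the sum with medians of −0.24 in both assays. Of 27 listed genes 19 were measured, and 12 were below 0 in both (27.1% of all genes). CIT2 (YCR005C; chrIII:120946-122328), the peroxisomal citrate synthase and a known target of retrograde signalling from mitochondria, read 502, 645, 936 and 632 CPM in RNA-seq and 601, 884, 1133 and 769 in RPF. The pex19 deletion was highest and the double deletion close to the msp1 deletion, with −0.93 (−1.02 to −0.83) and −1.12 (−1.27 to −0.96). MDH2, cytosolic malate dehydrogenase, was at −0.94 and −0.67. At the other end of the list PCK1, phosphoenolpyruvate carboxykinase, was at 0.39 and 0.25, and CAT8, an activator of these genes, at 0.14 and 0.21.

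ICL1, isocitrate lyase, named after its values were seen, had 843, 764, 1710 and 955 CPM in RNA-seq and 1267, 1283, 2531 and 1416 in RPF. It was high in the pex19 deletion alone, with the double deletion near wild type, with −0.70 and −0.86. Peroxisomal matrix enzymes overlap this list, and 11 of 26 were measured, with medians of −0.39 and −0.23. Of them 7 lay below 0 in both assays (27.1% of all genes). With a minimum of 50 reads those medians were −0.07 and −0.12. MLS1, malate synthase, was at −0.39 and −1.02, while CTA1, peroxisomal catalase A, was at −0.01 and 0.48 and AAT2, an aspartate aminotransferase, at 0.25 and −0.15. The cytosolic catalase gene CTT1 was thus below the sum in both assays and the peroxisomal one was not.

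Amino acid synthesis genes controlled by the activator Gcn4 were lower than the sum in 39 of 51 measured members in RNA-seq (53.3% of all genes) and 37 in RPF (46.7%), 29 of them in both (27.1%). Their medians were −0.21 and −0.19, the latter −0.08 without the trend with coding length and GC content, and the pex19 deletion was the highest of the 4 libraries for 33 and 32 of them. Over all genes the pex19 library was highest for 968 and 554 of 2495. HOM3, the aspartate kinase of threonine and methionine synthesis, read 187, 207, 301 and 161 CPM in RNA-seq and 183, 212, 301 and 191 in RPF (−1.05 and −0.87). ARG1 (YOL058W; chrXV:219211-220473), argininosuccinate synthetase, read 247, 321, 361 and 243, and 270, 377, 357 and 253. Both single deletions were above wild type and the double deletion level with it, at −0.95 (−1.10 to −0.80) and −0.98 (−1.22 to −0.73). PRO2 of proline synthesis (−0.17 and 0.57) and LEU2 of leucine synthesis (0.11 and 0.78) were the highest of the list by the mean of both assays.

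TGACTC, the core of the Gcn4 site, occurred in the windows of 34 of the 51 genes (66.7%) and in 9.1% of all windows. The ARG1 window is given as the member with near-equal values in both assays, from R64, plus strand, at chrXV:218811-219110, with both matches in capitals.
ARG1: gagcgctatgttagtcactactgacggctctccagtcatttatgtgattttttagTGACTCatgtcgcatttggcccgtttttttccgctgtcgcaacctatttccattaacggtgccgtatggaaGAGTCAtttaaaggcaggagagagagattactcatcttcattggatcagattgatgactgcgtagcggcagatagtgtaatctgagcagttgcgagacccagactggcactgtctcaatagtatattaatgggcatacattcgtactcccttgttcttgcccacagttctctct
Gcn4 genes with the site had medians of −0.23 and −0.22, and the 17 without it −0.12 and −0.11.

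Genes of biotin, the cofactor of carboxylases, lay below the sum as well. Of 11 listed genes of biotin synthesis, uptake and use 8 were measured, with medians of −0.37 and −0.51, and 7 were below 0 in both assays (27.1% of all genes). The RNA-seq median was −0.15 with a minimum of 200 reads. BIO3, which makes the diaminopelargonic acid intermediate of biotin, read 154, 141, 156 and 80.1 CPM in RNA-seq and 101, 110, 75.4 and 36.5 in RPF. The single deletions lay near wild type in RNA-seq and the double deletion alone was low, with −0.84 (−1.06 to −0.61) and −1.16 (−1.68 to −0.63). DUR1,2, the biotin-dependent urea amidolyase, was at −0.75 and −0.61, the latter −0.23 without the trend with coding length and GC content. ACC1, acetyl-CoA carboxylase, named after its values were seen, was high in the pex19 deletion instead, at 0.60 above wild type in RNA-seq against 0.17 in the double deletion (−0.48 and −0.32). VHT1, the plasma membrane biotin transporter, read 612, 475, 513 and 333, and 422, 366, 320 and 228. It was lower in each single deletion and lowest in the double. At −0.25 (−0.37 to −0.14) and −0.28 (−0.53 to −0.04) it lay below the sum by less than BIO3. PYC1, a biotin-dependent pyruvate carboxylase, was at −0.04 and −0.21, values that changed sign among the alternatives tried.

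OLE1, the fatty acid desaturase that makes unsaturated fatty acids in yeast, read 751, 982, 1313 and 892 CPM in RNA-seq and 594, 755, 1044 and 685 in RPF, for −0.94 and −0.95. It was highest in the pex19 deletion, with the double deletion between wild type and the msp1 deletion. YLR307C-A, a small gene of unassigned function here, read 28.3, 53.7, 59.0 and 49.0, and 77.8, 95.9, 192 and 90.7. In RNA-seq wild type was the low library and in RPF the pex19 deletion the high one, so its values of −1.19 and −1.38 came from different libraries.

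**Figure D2:**
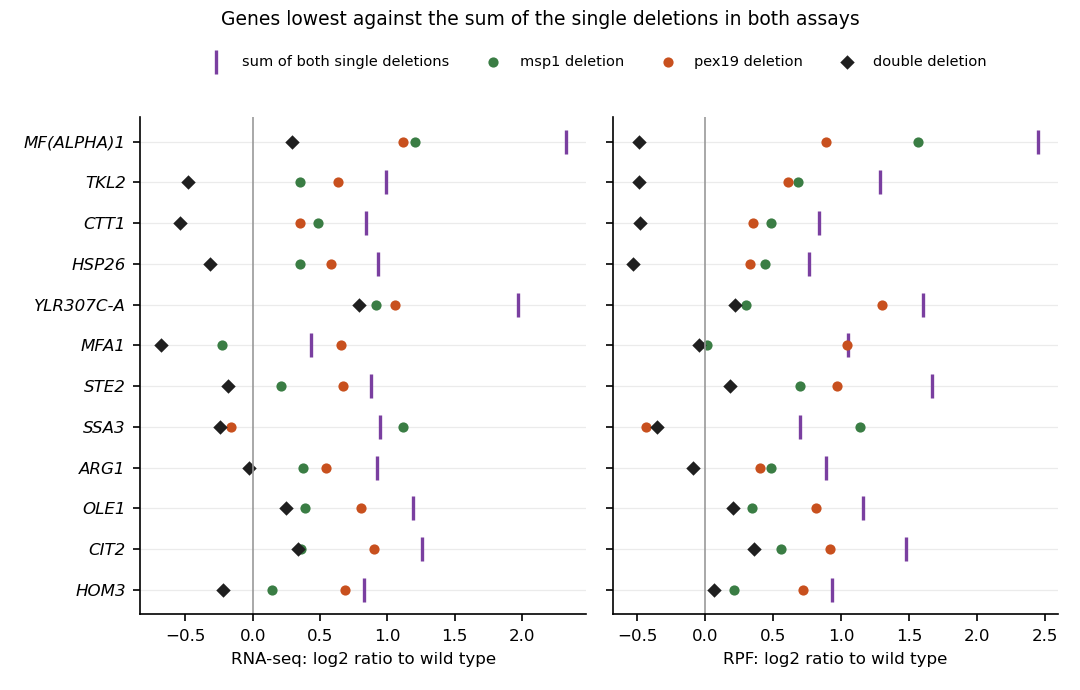
Log2 ratio to wild type of the 12 genes lowest against the sum of the single deletions, in RNA-seq (left) and RPF (right); circles are the single deletions, diamonds the double deletion and purple bars the sum. For CTT1, TKL2 and HSP26 both single deletions lie above 0 and the double deletion below it, at −0.54, −0.48 and −0.32 in RNA-seq.

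The library that stood apart was compared between the assays. Of the 44 genes at least 1.5-fold below it in both assays, 26 (59.1%) had the same library farthest from the other 3 in RNA-seq and in RPF. That library was the pex19 deletion for 12, the double deletion for 8, the msp1 deletion for 4 and wild type for 2. Of the 37 genes above the sum 10 (27.0%) had the same library apart in both assays, which is near the 669 of all 2495 genes (26.8%). Among the 37 the pex19 library stood apart for 24 in RNA-seq, and the msp1 library for 19 in RPF.

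ADH4 and ZRT1, genes of zinc shortage, were among the 10 with the same library apart. ADH4 (YGL256W; chrVII:15159-16307), an alcohol dehydrogenase that yeast makes at low zinc, read 873, 1769, 79.2 and 724 CPM in RNA-seq and 2161, 4390, 51.7 and 1626 in RPF. It was far below the other 3 libraries in the pex19 deletion in both assays and near wild type in the double deletion, with values of 2.17 (2.01 to 2.33) and 3.94 (3.67 to 4.21). ZRT1 (YGL255W; chrVII:20978-22108), the high-affinity zinc transporter of the plasma membrane, read 2166, 2761, 681 and 1970, and 2464, 3605, 748 and 2156. The pex19 deletion was again the low library and the msp1 deletion the highest, at 1.18 (1.11 to 1.25) and 0.98 (0.88 to 1.08).

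ZAP1, the activator of both genes, named after its values were seen, read 297, 469, 88.3 and 337 in RNA-seq and 137, 203, 67 and 157 in RPF, with 1.27 and 0.65. The 16 measured of 29 listed zinc genes had medians of −0.07 and −0.34. Of them 4 lay above 0 in both assays (27.1% of all genes) and 7 below (27.1%). The RPF median was between −0.38 and 0.15 among the alternatives tried. ZRT3, the vacuolar zinc exporter, was at 0.74 in RNA-seq and −1.08 in RPF; its low library in RNA-seq was the pex19 deletion (110 against 240 to 314), and its high library in RPF the msp1 deletion (195 against 77.1 to 84.9).

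The zinc-responsive element of Zap1 lay in the windows of 2 of the 2495 genes (0.0802%) and of 1 of the 16 zinc genes, ZRT1. Its window is given from R64, plus strand, at chrVII:20578-20877, with the element in capitals.
ZRT1: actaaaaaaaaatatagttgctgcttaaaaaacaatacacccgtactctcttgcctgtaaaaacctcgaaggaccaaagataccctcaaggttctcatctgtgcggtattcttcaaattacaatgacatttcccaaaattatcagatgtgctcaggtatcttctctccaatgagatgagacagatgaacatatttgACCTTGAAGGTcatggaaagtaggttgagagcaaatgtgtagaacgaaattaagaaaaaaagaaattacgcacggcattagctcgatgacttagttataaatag
Other zinc genes held no copy of it in this window, ADH4 among them.

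The other genes highest above the sum in both assays came from several processes. IMP2', a regulator of sugar use, read 49.8, 46.3, 45.6 and 91.7 CPM in RNA-seq and 67.8, 33.2, 85.4 and 90.1 in RPF. The double deletion stood high in RNA-seq and the msp1 deletion low in RPF, for 1.11 (0.77 to 1.45) and 1.10 (0.50 to 1.70). CYC7, the cytochrome c isoform made at low oxygen, read 28.1, 33.2, 8.46 and 18.8, and 93.9, 49.3, 39.4 and 77.2. Its values were 0.90 (0.28 to 1.51) and 1.88 (1.31 to 2.46). The pex19 deletion was lowest in both assays, and in RPF the msp1 deletion was low as well. CYC7 had 39 reads in the pex19 RNA-seq library and 55 in the msp1 RPF library. BDP1, a subunit of RNA polymerase III factor TFIIIB (0.78 and 1.43), and ABD1, the mRNA cap methyltransferase (1.00 and 0.93), were also lowest in the pex19 deletion in both assays.

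The remaining 6 had the pex19 or the double deletion apart in RNA-seq, and 4 of them the msp1 deletion in RPF. They were YOX1, a cell cycle repressor (0.91 and 1.08), MUD1, a subunit of the U1 spliceosomal particle (0.88 and 0.86), TIM8, a chaperone of the mitochondrial intermembrane space (0.82 and 1.11), PBP4 (1.14 and 0.81), MRP49 of the mitochondrial ribosome (0.78 and 0.88) and RPL35B (0.74 and 0.74). RPL35B is uncertain, because its coding sequence is 99.2% identical to that of RPL35A over 363 nt and how shared reads were assigned was not given in the sources used here.

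**Figure D3:**
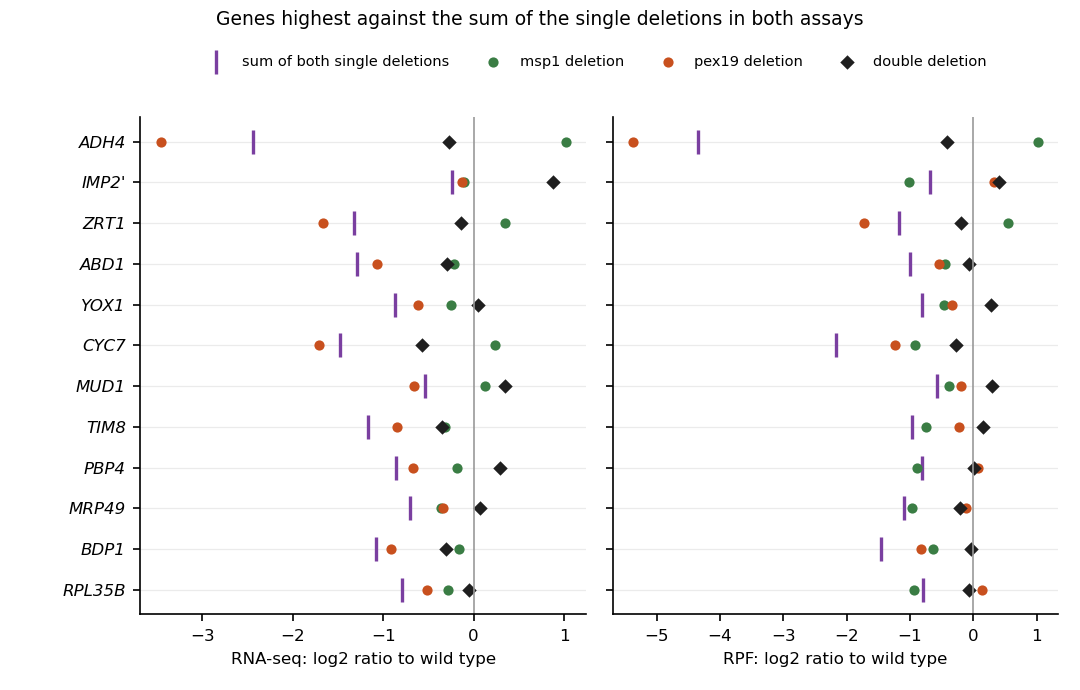
Log2 ratio to wild type of the 12 genes highest against the sum of the single deletions, in RNA-seq (left) and RPF (right), with symbols as for the lowest genes. For ADH4 the pex19 deletion lies at −3.46 and −5.37 while the double deletion lies at −0.27 and −0.41.

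Genes for making ribosomes had medians above the sum in both assays. Of 135 listed factors of ribosome biogenesis 69 were measured, 31 above 0 in both assays (27.1% of all genes), with medians of 0.16 and 0.22. Against wild type their median was −0.14 in the msp1, −0.08 in the pex19 and −0.16 in the double deletion by RNA-seq, and −0.17, −0.18 and −0.16 in RPF. In RPF the list was thus about as low in the double deletion as in either single one. In RNA-seq it was about as low as in the msp1 deletion and lower than in the pex19 deletion. KRI1, a factor of small subunit assembly, read 201, 151, 152 and 277 CPM in RNA-seq and 109, 85.2, 85 and 96 in RPF. It was highest in the double deletion by RNA-seq and in wild type by RPF (1.28 and 0.52), and MAK16 of the large subunit was at 0.42 and 1.55. TSR1 (−0.80 and −0.73) and EMG1 (−0.92 and −0.49) of small subunit assembly stood below the sum. The PAC element GCGATGAG lay in the windows of 24 of the 69 genes (34.8%, against 3.53% of all windows) and the RRPE element AAAAATTT in 59 (85.5%, against 18.2%).

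Subunits and factors of RNA polymerases I and III had medians of 0.00 and 0.29 over 14 measured members of 32. RPC10, a small shared subunit (−0.04 and 1.11), and RPC53 of polymerase III (0.03 and 0.74) were highest. The shared subunit RPB5 (−1.16 and 0.37) and RPO31, the largest subunit of polymerase III (−0.00 and −0.41), were lowest by the mean of both assays. The RNA-seq median changed sign among the alternatives tried.

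**Figure D4:**
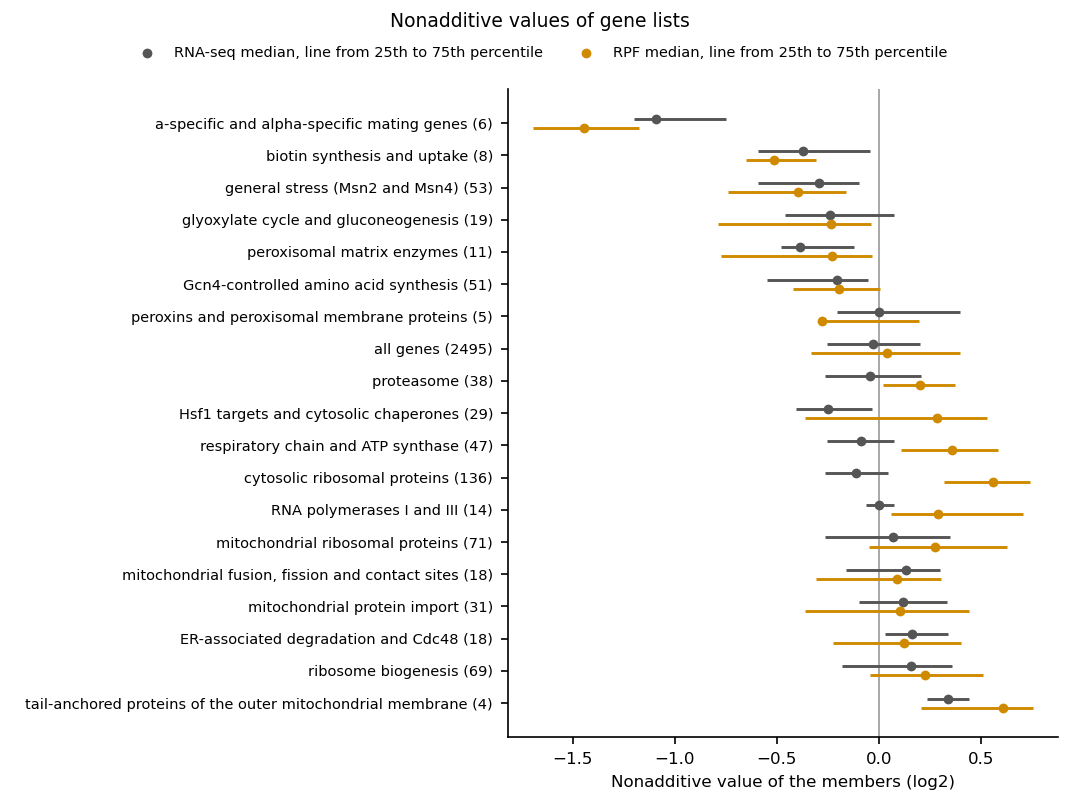
Median nonadditive value (log2) of each described list, with the number of measured members in brackets, for RNA-seq and RPF; lines run from the 25th to the 75th percentile of the members. The mating list lies lowest at −1.09 and −1.44, and the ribosomal protein, respiratory chain and Hsf1 lists have an RNA-seq median below 0 and an RPF median above it.

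Mitochondrial lists, which the function of MSP1 places near these deletions, stayed close to all genes in RNA-seq. For nuclear subunits of the respiratory chain and ATP synthase, 47 of 48 measured, the RNA-seq median was −0.09 and the RPF median 0.36, with 12 members at least 1.5-fold above the sum in RPF (15% of all genes) and 0 below (13.9%). The RPF median was 0.05 once the trend with coding length and GC content was removed. CYC1, the major cytochrome c, read 931, 909, 1002 and 880 CPM in RNA-seq and 3226, 2494, 2124 and 3214 in RPF. Its RNA was level across genotypes (−0.15), while its RPF was lower in both single deletions than in wild type and the double deletion (0.97, interval 0.88 to 1.05, and 0.50 with that trend removed). SDH1 of succinate dehydrogenase was at −0.09 and −0.37 and NDE2, an external NADH dehydrogenase, at −0.15 and −0.56.

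Mitochondrial protein import genes, 31 of 46 measured, had medians of 0.12 and 0.10, both of which changed sign among the alternatives tried. PAM18, a co-chaperone of the import motor (0.57 and 0.77), and TIM8 were highest. SAM50, the core of the outer membrane sorting machinery (−0.19 and −0.62), and TIM50, a receptor of the inner membrane translocase (−0.18 and −0.54), were lowest. Mitochondrial ribosomal proteins, 71 of 76 measured, had medians of 0.07 and 0.28, with 29 above 0 in both assays (27.1% of all genes). The RPF median was 0.09 once the same trend was removed. IMG1 (0.65 and 0.99) and MRP49 were highest, and MRP51 (−0.28 and −0.60) and RTC6 (−0.83 and −0.05) lowest.

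Genes of fusion, fission and contact sites of mitochondria, 18 of 26 measured, had medians of 0.14 and 0.09, the latter changing sign among the alternatives. The subunits of the MICOS complex of cristae stood at both ends in RPF, MIC12 at 0.07 and 1.14 and MIC60 at 0.10 and −0.57. MDM34 of the tether between mitochondria and the endoplasmic reticulum was at −0.32 and −0.58.

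In the outer membrane of mitochondria, tail-anchored proteins are embedded by a single helix at their end, as are the misplaced proteins that MSP1 removes. Of 6 listed genes 4 were measured. TOM22, a receptor of the import channel, read 179, 160, 138 and 154 CPM in RNA-seq and 309, 190, 264 and 275 in RPF (0.32 and 0.76). FIS1, the fission adaptor shared by mitochondria and peroxisomes, read 143, 123, 105 and 116, and 154, 156, 124 and 173 (0.37 and 0.46). In both genes every deletion was below wild type in RNA-seq, and the double deletion was closer to wild type than the sum. TOM6 and TOM7, small subunits of the channel, were at −0.00 and 0.76, and at 0.68 and −0.55. Without the trend with coding length and GC content the RPF value was 0.02 for TOM6, −1.20 for TOM7 and 0.46 for TOM22.

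Peroxins, which with PEX19 build peroxisomes, and other listed genes of the peroxisomal membrane and its division were read too little for most to be measured, and 5 of 33 listed passed. PEX11, which promotes peroxisome division, read 54.8, 71.4, 77.7 and 64.6 CPM in RNA-seq and 95.8, 120, 92.4 and 83.7 in RPF (−0.64 and −0.47). PEX5, the receptor of matrix enzymes, read 78.7, 79.3, 70.1 and 93.1, and 79.2, 69.9, 78.4 and 93.7 (0.40, interval 0.11 to 0.68, and 0.43, interval −0.06 to 0.93). The double deletion was highest for PEX5 in both assays. PEX30 of the endoplasmic reticulum was at 0.42 and −0.28, and the dynamin-like proteins DNM1 and VPS1 at −0.00 and −0.28, and −0.20 and 0.20.

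Lists of protein quality control differed in direction. Genes of degradation from the endoplasmic reticulum and of Cdc48, 18 of 25 measured, had medians of 0.16 and 0.13. Of them 11 lay above 0 in both assays (27.1% of all genes). The ubiquitin-conjugating enzyme UBC6 (0.45 and 0.44) and the Cdc48 cofactor UFD1 (0.40 and 0.45) were highest, and DFM1, a membrane protein of this pathway (−0.24 and −1.14), and the ligase UFD4 (0.02 and −1.37) lowest. Targets of the heat shock factor Hsf1 and cytosolic chaperones, 29 of 35, had medians of −0.25 and 0.28. Their lowest members, HSP26 and SSA3, also belong to the stress list, and the Hsp90 co-chaperone SBA1 (0.25 and 0.84) and the J-protein CAJ1 (0.11 and 0.89) were highest. All 38 proteasome genes were measured, with medians of −0.04 and 0.20, the former changing sign among the alternatives. PUP3 of the core (0.63 and 0.84) and SEM1 of the lid (0.16 and 1.30) were highest, and RPN2 (−0.26 and −0.85) and RPT3 (−0.08 and −0.74) of the regulatory particle lowest.

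Cytosolic ribosomal proteins lie outside the rule for described lists because their sign differed between the assays, and were taken up after their values were seen. Of 138 listed genes 136 were measured, and in RPF 134 lay above the sum (53.3% of all genes did), with a median of 0.56. In RNA-seq 46 lay above it (46.7% of all genes did) and the median was −0.11. The RPF medians against wild type were −0.51 in the msp1, −0.10 in the pex19 and −0.09 in the double deletion, and the msp1 library was the lowest of the 4 for 133 of the 136. That library had the fewest reads. Ribosomal protein genes are short, with a median coding length of 433.5 nt against 1263 nt over all genes, and removal of the trend with length and GC content left an RPF median of 0.21. The part of depth and length in these values was not tested.

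The RPF values of other genes moved with coding length as well. Across the 2495 genes the Spearman correlation of length with the nonadditive value was −0.411 in RPF and 0.132 in RNA-seq; genes share libraries and are not independent. Without ribosomal protein genes, genes under 300 nt had a median RPF value of 0.54, those of 300 to under 600 nt 0.45 and those of at least 2500 nt −0.22. The RPF ratio to wild type correlated with length at 0.365 in the msp1, 0.239 in the pex19 and −0.0984 in the double deletion. Short genes were thus lower than wild type in the RPF of both single deletions and not in that of the double. The lists with high RPF medians hold short genes, with median coding lengths of 447 nt for the respiratory chain and 714 nt for the mitochondrial ribosome, and the part of length in them was not tested. Single genes also moved when the trend with length and GC content was removed. Among the short ones, in RPF, RPC10 came to 0.44, RPL35B to 0.31, PAM18 to 0.50 and MRP49 and PBP4 to 0.56. MFA1 came to −2.12 and MFA2 to −1.61. These are examples. Among all alternatives tried, the lowest RPF value was 0.59 for TIM8, 0.67 for MIC12, 0.79 for SEM1, 0.18 for FIS1 and 1.44 for CYC7. The highest was −0.07 for RPO31 and −1.03 for UFD4.

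**Figure D5:**
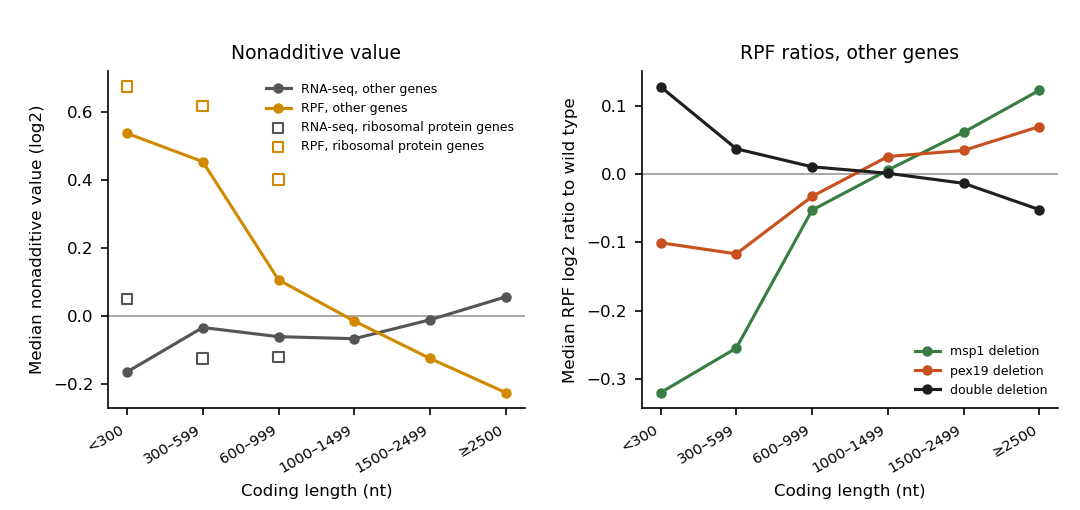
Median nonadditive value (left, log2) and median RPF ratio to wild type (right, log2) of genes grouped by coding length in nt; squares show ribosomal protein genes in the groups with at least 10 of them. The RPF nonadditive median runs from 0.54 in the shortest genes to −0.22 in the longest, while the RNA-seq median stays between −0.16 and 0.06.

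A few genes departed from the sum far more in RPF than in RNA-seq, or oppositely. AGA1, a cell surface anchor of mating adhesion from the pheromone-response list, was at −0.51 in RNA-seq and at −3.68 (interval −4.34 to −3.01) in RPF. It read 21.8, 72.6, 121 and 30.6 CPM in RPF, from 46, 81, 277 and 52 reads. AGA1 thus reached the minimum mean of 100 RPF reads only through the pex19 library, where it was high. FMP45, a membrane protein of the cell cortex and mitochondria, read 134, 136, 135 and 112 CPM in RNA-seq and 66.4, 160, 143 and 57.2 in RPF. Its RNA was level in the single deletions (−0.29) while its RPF was high in both and low in the double deletion (−2.58, interval −3.03 to −2.12). OCH1, a mannosyltransferase of the Golgi, was at 0.38 and −1.46, with RPF again high in both single deletions (56.0, 90.5, 96.8 and 56.6). At the other end RSM19 of the mitochondrial ribosome was at −1.38 and 1.27, the co-chaperone SGT1 at −0.78 and 1.29, YCR051W at −0.77 and 1.25, and YFR032C-B at −0.34 and 2.11. For YFR032C-B, RPF was 135 in wild type, 53.8 and 57.8 in the single deletions and 100 in the double deletion.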

How the data were processed

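RNA-seq and RPF libraries of 4 W303 genotypes were used, 1 library per genotype and assay. Per the labels' protocols, RNA was depleted of ribosomal RNA and fragmented to 19 to 40 nt, and RPF of 19 to 33 nt came from RNase I-treated monosomes. Per the submitters' processing notes, cutadapt 1.8, STAR 2.5 and the sacCer3 (R64) genome were used. The tool that counted reads, its use of strand and its handling of shared reads are not given in the sources used here. Per the file headers the deposited counts are headed as reads; they are whole numbers of at least 1, and every calculation started from them. The authors' deposited TPM values, and the RPM and RPKM values that 1 file also holds per the file headers, were not used. Blank lines at the end of files name no gene and were dropped.

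Scaling used TMM factors (edgeR 4.0.16 in R 4.3.3) per assay, from genes whose mean reached 50 reads. Before log2 a pseudocount of 1 read, adjusted to the size of the library, was added. Other steps ran in Python 3.11.15 with numpy 2.4.6 and pandas 2.3.3. Counting intervals are 95% delta-method intervals from the 4 counts; since PCR reads lack molecular identifiers, they cover counting error only. The depth per library, given with the results, sets their width. With 1 library per genotype no test was run. Lists of 50 functional classes and all rules were chosen with earlier results of these data known. Described were the 6 highest and 6 lowest lists by the smaller absolute median where both assays had the same sign, and the lists of peroxisomes, mitochondrial import, the respiratory chain, tail-anchored proteins, chaperones and the proteasome. Named were up to 12 genes per direction with the same sign in both assays, ranked by the smaller absolute value. To these came the 4 highest and 4 lowest by RPF minus RNA-seq value, the 2 highest and 2 lowest members of each described list by the mean of both assays, all members of lists with at most 6, and the deleted genes' neighbours. Near-identical copies were sought by blastn 2.17.0 (at least 90% identity over at least 100 nt). Motifs were matched on both strands of the R64 sequence in a window of 300 bases that ends 100 bases before each start codon; those searched but not printed are given in the closing part. The calculation was tested on simulated data.

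Alternatives were scaling by library totals, by the median of ratios, by TMM over all listed genes or without ribosomal protein genes, pseudocounts of 0.1 and 5, minimum means of 50 and 200 reads, at least 50 reads in every library, and removal of a trend with coding length and GC content.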

Additional observations from a re-analysis of the deposited data

Results flagged for a closer look

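For MF(ALPHA)1 and TKL2, among other genes, the effect of a deletion had opposite signs with and without the other gene, in both assays. With 1 library per genotype these differences were not tested. Loss of MSP1 moved MF(ALPHA)1, the α-factor precursor, by 1.21 on the log2 scale in RNA-seq and 1.56 in RPF where PEX19 was present, and by −0.83 and −1.37 where PEX19 was deleted. Loss of PEX19 moved it by 1.12 and 0.885 where MSP1 was present, and by −0.92 and −2.05 where MSP1 was deleted. For TKL2, the minor transketolase, loss of PEX19 gave 0.63 and 0.61 with MSP1 present and −0.84 and −1.17 with MSP1 deleted. Each pair of values comes from the same 4 libraries of an assay. TKL2 reversed for loss of MSP1 as well, from 187 to 240 CPM with PEX19 present and from 290 to 134 without it in RNA-seq. Such a reversal was not particular to these genes. CTT1 stood at 0.49, 0.35 and −0.54 against wild type in the msp1, pex19 and double deletions by RNA-seq, and HSP26 at 0.35, 0.58 and −0.32. In RPF they stood at 0.48, 0.35 and −0.48, and at 0.44, 0.33 and −0.53.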

How the results depend on the processing

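No paired analysis was possible because each genotype had 1 library per assay, and for the same reason no replicate could be left out: the value needs all 4 libraries. Genes at least 2-fold above the sum in both assays numbered 2, and 4 with TMM over all listed genes, 8 with a mean of at least 50 reads, 1 with a mean of at least 200 and 1 with at least 50 reads in every library. At the 1.5-fold limit, 37 above and 44 below became 65 and 69 with a mean of at least 50 reads, and 11 above with a mean of at least 200. A mean of at least 1000 reads, an alternative chosen after seeing the data, left 1 above and 1 below at 2-fold, and 3 above and 9 below at 1.5-fold. That fewer or more genes enter under another minimum shows in these counts. In the other 37 settings of these counts the number stayed within 1.5 times. Of the 8 genes 2-fold below, 6 were shared once the trend with length and GC content was removed, which dropped MFA1 and SSA3 and added MFA2 and YKL065W-A. Centring on the median of all genes, also chosen after seeing the data, gave 41 above and 40 below at 1.5-fold. No called gene value changed sign, while some uncalled ones did, among them CTA1 in RNA-seq and TPO1 in RPF. Counted over genes, assays and alternatives, called or not, 24 values moved beyond their counting interval and 1902 did not. Medians of lists moved by more than 0.1 in 59 settings and by less in 471. Depth limits single genes, with a median counting half-width of 0.387 on the log2 scale in RPF and 0.192 in RNA-seq; the spread between cultures was not measured.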

Other observations

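Further lists, outside the rule for described lists and taken up after their values were seen, had medians of unequal size in the assays. Unless stated otherwise, the values of these lists keep the trend with coding length and GC content, whose part was not tested. The 24 measured genes of fatty acid and phospholipid synthesis, OLE1 among them, had an RNA-seq median of −0.17 and an RPF median of −0.44, with 14 below the sum in both assays against 27.1% of all genes. The synthase subunits FAS2 (−0.61 and −0.84) and FAS1 (−0.44 and −0.76) and INO1 of inositol synthesis (−0.61 and −0.63) were below it in both, and FAA1, an acyl-CoA synthetase, was at 0.73 and −0.03. Trehalose and glycogen genes, 18 measured, had medians of −0.15 and −0.31, and all 18 were below 0 in RNA-seq (53.3% of all genes). PGM2, phosphoglucomutase, was at −0.90 and −0.48, and GDB1, the glycogen debranching enzyme, at −0.03 and −1.02. Ergosterol genes, 26 measured, had medians of −0.05 and −0.31. Glycolytic and fermentation genes, 21 measured, had medians of −0.22 and −0.10, with the msp1 library the highest of the 4 for 15 of them in RNA-seq and 14 in RPF, which over all 2495 genes was so for 522 and 768.

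The 10 measured histone genes had medians of 0.00 and 0.61, with all 10 above the sum in RPF (53.3% of all genes). The msp1 RPF library was lowest for 9 of these histone genes. Their median coding length was 399 nt, and the RPF median was 0.23 without the trend with length and GC content. The 41 translation factor genes had medians of −0.08 and 0.37. Genes of the unfolded protein response of the endoplasmic reticulum, 27 measured, had medians of 0.11 and −0.24, and against wild type they stood at 0.14, −0.14 and 0.12 in RNA-seq in the msp1, pex19 and double deletions. Of the genes of mitochondrial import stress and drug resistance 5 were measured, with medians of −0.09 and −0.10; the reductase GRE2 was at −0.62 and −0.23, the polyamine exporter TPO1 at −0.52 and −0.10, and the drug transporters PDR5 at −0.09 and −0.03 and SNQ2 at −0.02 and −0.28. PDR16, a lipid transfer protein, was at 0.16 and 0.80.

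The proteasome element GGTGGCAAA of Rpn4 lay in the windows of 22 of 38 proteasome genes (57.9%) and 1.88% of all windows, and the heat shock element of Hsf1 in 13 of 29 Hsf1 and chaperone genes (44.8%) and 1.56% of all. CAGCGTG, the core of the unfolded protein response element, lay in 1 of 27 genes of that list (2.04% of all windows), TGCACCC of Aft1 in 5 of 13 iron genes (1.32%), CACGTG of Cbf1 in 6 of 14 sulfate and methionine genes (5.37%) and TCCGCGGA of Pdr1 and Pdr3 in 1 of 5 drug resistance genes (0.361%).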
